A study of Capsella rubella with 6 samples.

Results

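A set of 66 genes of *Capsella rubella* was read mainly from the Cr A allele in endosperm from both directions of a cross. The parents were the accessions Cr48.21, called Cr A, and Cr75.2, called Cr B. The genes, called members below, were chosen by measured values. In each gene interval the reads at SNPs that separate the parents were summed by allele, the maternal sum was halved, and the Cr A share of what remained was taken in each library. A gene was kept when it had at least 20 allelic reads and a Cr A share of at least 75% in each of the 4 endosperm libraries. This gave 66 of the 6990 genes that had 20 or more reads in every library (0.944%), out of 12641 gene intervals with a SNP. The same rule turned to the other allele, a Cr A share of at most 25% in each library, gave 81 Cr B-dominated genes (1.16%). Since the shares chose the genes, they are given below as a description, with no test.

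*Capsella rubella* is a selfing relative of *Arabidopsis*. The study crossed Cr A and Cr B in both directions and sequenced RNA from endosperm dissected 6 days after pollination, with 2 libraries of Cr A x Cr B plus 2 libraries of Cr B x Cr A, each from 300 to 500 pooled seeds. Leaf DNA of each accession was also sequenced and was not analysed here. All plants carried only their accession's natural alleles as far as the labels say, and names of crosses were read as female x male, which the labels do not state. On the opposite reading Cr A and Cr B change places below as alleles and as parents, while the names of crosses and libraries stay.

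Endosperm is the seed tissue that feeds the embryo, and it inherits 2 maternal genomes for 1 paternal genome. A gene with equally active alleles therefore gives more maternal than paternal reads, which is why maternal sums were halved. A gene can depart from that dosage in different ways. An imprinted gene is read by the parent an allele came through, so the favoured accession changes when the cross is turned around. A gene whose alleles differ in activity because of their own sequence or chromatin favours the same accession in both directions. Reciprocal crosses separate these cases from each other. They do not separate a difference in activity from one in how the reads of each allele were mapped or assigned, which was not tested.

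The libraries held 8122761 and 11702341 allelic reads in Cr A x Cr B replicates 1 and 2, then 9524883 and 11637156 in the reciprocal cross. Over the 6990 covered genes the median Cr A share was 53.0% and 51.3% in Cr A x Cr B, then 46.7% and 43.5% in the reciprocal cross, so the background itself leaned slightly to the maternal allele. The intervals carry no gene names in the files, and the reference at hand, on the assembly Caprub1_0, could not be tied to them, so genes are identified by scaffold, start, end and strand, in the authors' coordinates. Which build that is was not given in the sources used here. Without names, endosperm, embryo and seed coat markers could not be read, and the labelled tissue was not checked against them.

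Across the 66 genes the median of the mean Cr A share was 89.2%, with a range from 79.8% to 100%. By library the medians were 90.7% and 91.5% in Cr A x Cr B replicates 1 and 2, then 91.7% and 86.9% in the reciprocal cross. Cr B x Cr A replicate 2 gave the lowest share of the 4 libraries in 22 of the 66 genes, and the other libraries did so in 13 to 18. The SD over the 4 libraries had a median of 4.61 percentage points and reached 9.81, within the range from 75% to 100% that the rule allows. In 38 genes the lowest library was at 80% or more, in 19 at 90% or more, in 10 at 95% or more and in 4 at 99% or more.

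**Figure D1:**
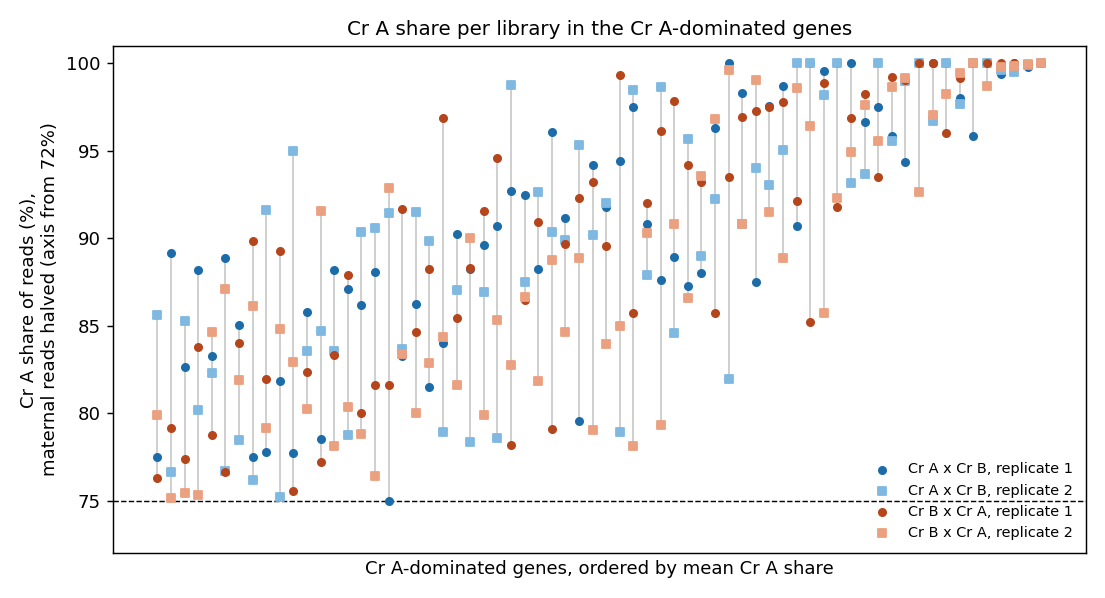
Cr A share of reads in percent, after halving maternal reads, for each of the 66 Cr A-dominated genes, ordered along the horizontal axis by mean share. Each point is 1 library, the grey line joins a gene's lowest and highest library, and the dashed line is the 75% used to choose the genes. The points of both crosses mix, and genes at the left span more percentage points than those at the right.

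The depth behind these shares varied widely. The 66 genes had 147 to 45405 allelic reads over the 4 libraries, with a median of 845.5, and 28 of them had 1000 or more. At least 50 reads in every library were found for 48 genes and at least 100 for 31. Exact (Clopper-Pearson) 95% intervals on the allelic reads stayed at or above 75% in every library for 36 genes, so at this depth the other 30 are placed above the threshold by their point values. These intervals cover counting error only, and a read that spans several SNPs is counted at each.

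The gene with no Cr B read at all lay on the plus strand of scaffold 6, from 13804520 to 13806933. It had 283 and 166 Cr A reads in Cr A x Cr B, then 284 and 158 in the reciprocal cross, and 0 Cr B reads in each. A count of 0 over these libraries still permits up to 0.337% of its reads to be from Cr B. All of its 7 SNPs lay in exons, and the 4 with 20 or more reads in every library each stood at 100%.

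The Cr A allele was nearly alone in 3 other genes too. On the minus strand of scaffold 4, the interval from 6573366 to 6576696 had Cr A shares of 99.8% and 99.9% in Cr A x Cr B, then of 99.98% and 99.98% in the reciprocal cross. Its Cr B reads numbered 10 of 10482, 4 of 11877, 1 of 2866 and 2 of 4495. This was the deepest of the nearly exclusive genes, and a plus-strand interval from 6572160 to 6575069 overlaps it. None of the 10 SNPs in the overlap was assigned to the Cr A-dominated gene, and the library kit does not mark strand. On the plus strand of scaffold 7, the interval from 7107511 to 7109504 gave shares of 100% and 99.5%, then 100% and 99.8%. On the plus strand of scaffold 3, the interval from 704296 to 706546 gave 99.4% and 99.6%, then 100% and 99.8%. In these genes the crosses overlapped or differed by less than 1 percentage point.

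Another 4 genes completed the 8 with the highest lowest-library share among those with 50 reads in every library. On scaffold 6 from 629524 to 631443 the shares were 98.0% and 97.7% in Cr A x Cr B, then 99.2% and 99.4% in the reciprocal cross. On scaffold 3 from 8748909 to 8754974 they were 100% and 96.7%, then 100% and 97.1%, on 60 to 88 reads a library. On scaffold 7 from 17188269 to 17189022 they were 100% and 100%, then 96.1% and 98.3%. The remaining gene, on scaffold 2 from 2236873 to 2241290, also had the most reads of all members and is described with the parental test.

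Among the 12 genes with most reads, the Cr A share was not always that high. The interval on scaffold 3 from 13915259 to 13916881, with 2725 to 7518 reads a library and 15 exon SNPs, had shares of 77.5% and 85.6% in Cr A x Cr B, then of 76.3% and 79.9% in the reciprocal cross. The interval on scaffold 7 from 8836045 to 8837747 stood at 97.6% and 93.0%, then 97.5% and 91.5%. The interval on scaffold 1 from 7217567 to 7225175, read at 1 SNP, stood at 85.8% and 83.6%, then 82.3% and 80.2%. On scaffold 7 from 14915832 to 14920739, with 316 to 1642 reads a library, the shares spread more, at 90.7% and 78.6%, then 94.6% and 85.3%. The scaffold 3 gene kept a Cr B allele that was clearly read in every library, with 583 to 2063 Cr B reads, so the set holds partial as well as near-complete dominance.

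Reads of 1 abundant member moved between replicates rather than between crosses. On the minus strand of scaffold 5, from 11135192 to 11136754, there were 3601 and 233 reads in Cr A x Cr B, then 4570 and 305 in the reciprocal cross. Replicate 1 was high and replicate 2 low in both crosses. The Cr A share was 77.7% and 94.98%, then 75.5% and 82.9%, so the libraries with more reads of this gene had the lower share. The part of the depth difference in the share was not tested.

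The genes nearest to the threshold show how it falls. Just inside were the intervals on scaffold 7 from 5494099 to 5495595, with a lowest share of 75% on 21 reads, on scaffold 1 from 17290224 to 17292208, with 75.1% on 2116 reads, and on scaffold 6 from 2121148 to 2122589, with 75.2% on 113 reads. The 95% interval of the first ran from 46.7% to 94.1%, and that of the second from 73.4% to 76.7%. Just outside were the intervals on scaffold 8 from 1398643 to 1400800, with a lowest share of 74.97%, on scaffold 6 from 4071875 to 4074243, with 74.8%, and on scaffold 6 from 13943001 to 13946513, with 74.5%. The lowest shares of these 6 genes lie closer together than the counting error of such a library.

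The level of each allele in members was set beside that over all covered genes, as a description. Per SNP and genome copy, as a mean of the 4 libraries, the Cr A allele of members had a median of 27.8 reads, against 36.9 over all covered genes, a ratio of 0.754. The Cr B allele of members had a median of 2.84 reads, against 39.7, a ratio of 0.0716. Cr B-dominated genes, chosen by the opposite share, had the reverse, with medians of 32.7 reads for Cr B and 2.275 for Cr A. Members were also read less as a whole, with a median of 47.5 reads per SNP and library against 119. These levels are per SNP and not per length of transcript, and the low Cr B level follows from how the genes were chosen.

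**Figure D2:**
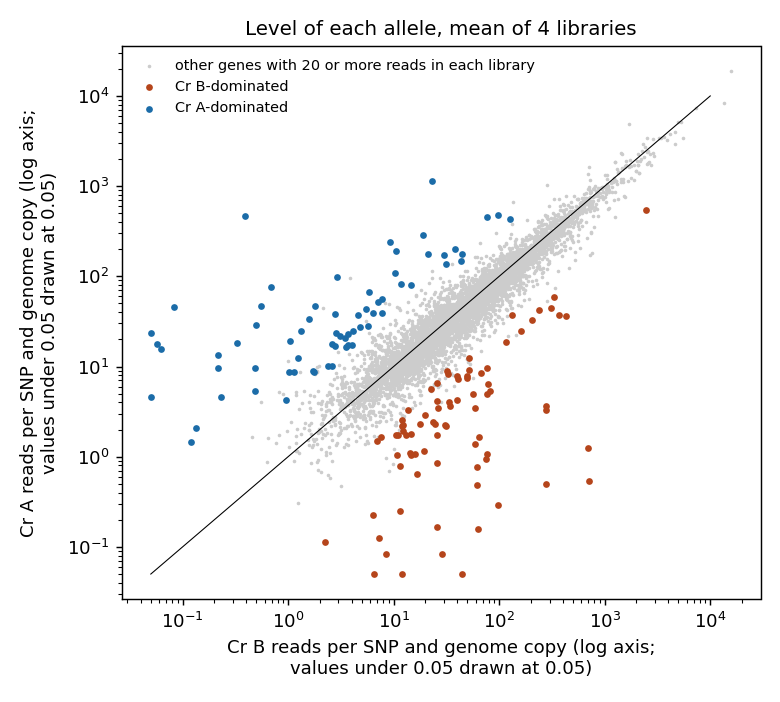
Cr A reads against Cr B reads per SNP and genome copy, as means of the 4 libraries, on log axes, for Cr A-dominated genes (blue), Cr B-dominated genes (red) and the other covered genes (grey); values under 0.05 are drawn at 0.05 and the line marks equal levels. The blue points share the Cr A range of the grey cloud, with a median of 27.8 against 36.9 over all covered genes, and spread to the left of it along the Cr B axis.

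Total expression, the sum of both alleles' reads, was also compared between the crosses. Endosperm carries 2 Cr A copies with a Cr A mother (Cr A x Cr B) and 1 with a Cr A father (Cr B x Cr A). At unchanged activity per copy a Cr A share of 75% alone gives a log2 difference in total of -0.49, Cr B x Cr A over Cr A x Cr B, and a share of 100% gives -1. The direction of the total is thus largely set by the choice of the genes, and the values that follow describe it. No member passed the edgeR quasi-likelihood test after Benjamini-Hochberg adjustment over 9040 genes, and neither did any other gene (0%), with a smallest adjusted p of 1.00 among the members and of 0.402 over all genes. DESeq2 called 0 members too. The fitted total was lower in Cr B x Cr A in 58 of 66 members (87.9%) and in 47% of all genes tested. The median log2 difference over members was -0.81, with quartiles of -1.14 and -0.43, against 0.04 over all genes tested. The difference that the copies alone give at each member's mean share had a median of -0.77. Fitted minus given by the copies, the median was -0.08, with quartiles of -0.36 and 0.25, and 38 of 66 members lay below. Cr B-dominated genes, chosen by the opposite share, had a median total difference of 0.87.

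In 30 members (45.5%) both Cr B x Cr A libraries lay below both Cr A x Cr B libraries, which held for 12.3% of all genes tested. At an unadjusted p under 0.05 there were 12 members (18.2%), against 1.36% of all genes tested. All 12 were lower in Cr B x Cr A, as were 0.796% of all genes tested, and these counts too are descriptions in genes chosen for a high Cr A share. The count of 12 was lower with either library of Cr A x Cr B left out, but those fits hold only 1 library of that cross. The median log2 difference over members was then -0.88 without replicate 1 and -0.73 without replicate 2. The median difference was -0.67 between the libraries numbered 1 and -0.85 between those numbered 2.

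The example with the smallest unadjusted p was the nearly exclusive gene on scaffold 4 from 6573366 to 6576696. Its total was 1442 and 1055 TMM-scaled counts per unit of library size (CPM, computed by edgeR) in Cr A x Cr B, then 349.0 and 384.1 in the reciprocal cross. The crosses did not overlap, and the log2 difference in edgeR was -1.77 (SE 0.390, adjusted p = 1.00). The gene on scaffold 7 from 8836045 to 8837747 had 368.0 and 297.6 CPM, then 162.7 and 115.4, a log2 difference of -1.26 (SE 0.403). The gene on scaffold 7 from 7107511 to 7109504 had 130.6 and 110.5 CPM, then 63.3 and 49.4. In each the Cr B x Cr A libraries were lower, and none of these differences passed the adjusted threshold.

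Counted per Cr A copy, the difference between the crosses was smaller. The median log2 difference in Cr A reads per Cr A copy, Cr B x Cr A over Cr A x Cr B, was -0.11 in members, with quartiles of -0.35 and 0.23, and 28 of 66 members were positive. Over 6841 covered genes the same median was -0.19. For the gene on scaffold 7 from 7107511 to 7109504 the level per Cr A copy was 65.3 and 55.1 CPM in Cr A x Cr B, then 63.3 and 49.2 in the reciprocal cross, so the crosses overlapped. For the gene on scaffold 4 from 6573366 to 6576696 it was 720.1 and 527.1, then 348.9 and 383.9, so the Cr B x Cr A libraries were lower per copy as well. The total and the value per copy come from the same reads and are not independent.

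**Figure D3:**
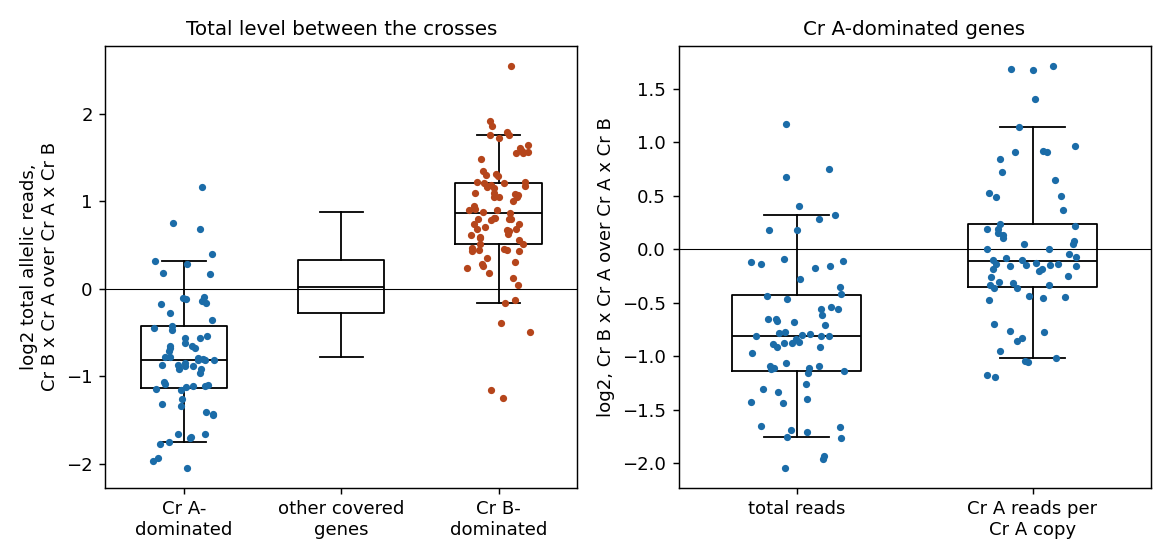
Left, log2 difference in total allelic reads, Cr B x Cr A over Cr A x Cr B, for Cr A-dominated genes, other covered genes and Cr B-dominated genes; right, for Cr A-dominated genes, the same difference in total reads beside that in Cr A reads per Cr A copy. Boxes show quartiles and median, whiskers reach from percentile 5 to percentile 95, and points are genes (none drawn for the other covered genes); the medians are -0.81 for the total of Cr A-dominated genes, 0.87 for Cr B-dominated genes and -0.11 per copy.

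A second contrast asked whether an allele was read more when inherited through the mother or through the father. The rule limits the answer, since it caps the maternal share of raw reads at 40% in Cr B x Cr A and holds it at 85.7% or more in Cr A x Cr B. The counts of calls are therefore given without reading a difference from the background. By edgeR's quasi-likelihood test over 8597 genes, with adjustment over all of them, 2 members were higher on the maternal side, where 5.73% of all genes tested were called, and 1 on the paternal side, where 1.71% were called. The 3 calls are 4.55% of the members, beside 7.44% of all genes tested. At an unadjusted p under 0.05 there were 12 members (18.2%), beside 19.7%. Leaving out Cr A x Cr B replicate 1 gave 1 maternal and 0 paternal calls, and leaving out its replicate 2 gave 0 and 2. Without either Cr B x Cr A replicate they were 1 and 1.

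In all 3 genes the summed Cr A share differed between the crosses. In the gene on scaffold 6 the favoured allele also differed over part of the interval, on 22 to 60 reads a library. On the plus strand of scaffold 2, from 2236873 to 2241290, the Cr A share was 95.8% and 95.5% in Cr A x Cr B, then 99.2% and 98.6% in the reciprocal cross. The Cr A preference was larger when Cr A came through the father, with a log2 maternal effect of -1.04 (SE 0.159, adjusted p = 0.0117 in edgeR). This gene had 45405 reads, and its 4 well covered SNPs had mean Cr A shares from 94.3% to 98.5%. When replicate 1 or 2 of Cr A x Cr B was left out, its adjusted p was 0.0529 or 0.0681.

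On the minus strand of scaffold 6, from 632826 to 638182, the Cr A share was 97.5% and 98.5% in Cr A x Cr B, then 85.7% and 78.1% in the reciprocal cross. The log2 maternal effect was 1.77 (SE 0.339, adjusted p = 0.0284 in edgeR). This sum mixes different readings, since 4 of its 11 SNPs lie where the plus-strand member from 631812 to 633313 overlaps it.

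At the 4 SNPs in the overlap the Cr A share was 96.3% and 100% in Cr A x Cr B, then 91.7% and 97.1% in the reciprocal cross. At the 7 SNPs outside it the share was 100% and 92.2% on 26 and 49 reads in Cr A x Cr B, then 37.0% and 18.2% on 22 and 60 reads in the reciprocal cross. Outside the overlap the share after halving thus favoured Cr A when it was maternal and Cr B when Cr B was maternal. In the reciprocal cross 17 of 22 and 54 of 60 raw reads were from Cr B, beside 66.7% at equal activity per copy. On 22 reads the lean in replicate 1 was not tested against an even share. Over those SNPs alone the gene does not meet the rule, and with only SNPs that lie in 1 interval the log2 maternal effect was 2.85 (adjusted p = 0.0427 in edgeR). The library kit does not mark strand, so reads in the overlap cannot be told apart between the genes.

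On the plus strand of scaffold 8, from 3152553 to 3153898, the share was 100% and 100%, then 91.8% and 92.3%, with a log2 maternal effect of 3.22 (SE 0.606, adjusted p = 0.0388 in edgeR). This gene had no Cr B read among 101 and 220 reads in Cr A x Cr B, so the fitted size depends on the fit's handling of counts of 0. The crosses did not overlap in any of the 3 genes. Leaving out Cr A x Cr B replicate 1 or 2, or Cr B x Cr A replicate 2, raised the adjusted p of the scaffold 6 gene to between 0.0652 and 0.216. Leaving out any library raised that of the scaffold 8 gene to between 0.0672 and 0.147.

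The members tended to hold more SNPs than other genes. They had a median of 5 SNPs against 3 over all covered genes, and of 2.77 SNPs per kb against 1.29. Cr B-dominated genes had 2.96 per kb. The intervals of members were shorter, with a median of 2097.5 bases against 2710.5. A single SNP supported 9 members (13.6%), against 22.4% of covered genes. Of the members' SNPs 77.8% lay in exons, against 73.5%, and 37 of the 66 genes lay on the plus strand. The part of SNP density in the allele shares was not tested.

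Where several SNPs of a gene could be read, they mostly pointed the same way. Of 487 SNPs in members, 140 had 20 or more reads in every library. In the 25 genes with at least 2 such SNPs there were 114, of which 80 (70.2%) were at 75% or more in each library and 113 had a mean above 50%. In 14 of these 25 genes every such SNP was at 75% or more in each library. The range of mean shares between the SNPs of a gene had a median of 3.38 percentage points and reached 43.2. SNPs of 1 gene share reads and transcripts and are not replicates, and their summed reads are the ones that chose the genes.

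Agreement along the gene was clear in some intervals. On scaffold 3 from 8488855 to 8496529, a gene with Cr A shares of 94.2% and 90.2% in Cr A x Cr B, then of 93.2% and 79.0% in the reciprocal cross, the 18 well covered SNPs had mean shares from 81.6% to 93.9%. On scaffold 4 from 6573366 to 6576696 the 6 such SNPs had mean shares from 99.8% to 100%. In the former the low library was Cr B x Cr A replicate 2 at all 18 SNPs, and in the latter no library fell below 99.3% at any of them.

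In other members the summed share came from some SNPs only. On scaffold 6 from 342684 to 346059 the gene is read at 2 exon SNPs, 1 with a mean Cr A share of 99.6% and the other of 56.3%. On scaffold 4 from 12286815 to 12289482 the deepest SNP, with 388 to 3030 reads a library, had a mean of 89.3%, and the 2 other well covered exon SNPs had 53.4% and 55.6% on 50 to 112 reads. In both genes the summed share met the rule although these other exon SNPs stood near an even share.

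Exons and introns could be compared in 4 members with 20 or more reads in both. On the minus strand of scaffold 7 from 9777736 to 9779396, 3 exon SNPs had mean shares from 89.4% to 91.5%, and 2 intron SNPs had 49.4% and 50.5%, on 20 to 48 reads a library. On the minus strand of scaffold 4 from 2651305 to 2653862, exon reads stood at 100% and intron reads at 52.3%. On scaffold 3 from 8488855 to 8496529 they stood at 89.7% and 83.6%, and on scaffold 2 from 1771711 to 1774608 the order turned, with 78.9% in exons and 94.96% in introns. The intron share was lower in 3 of the 4 genes, with no test on so few.

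**Figure D4:**
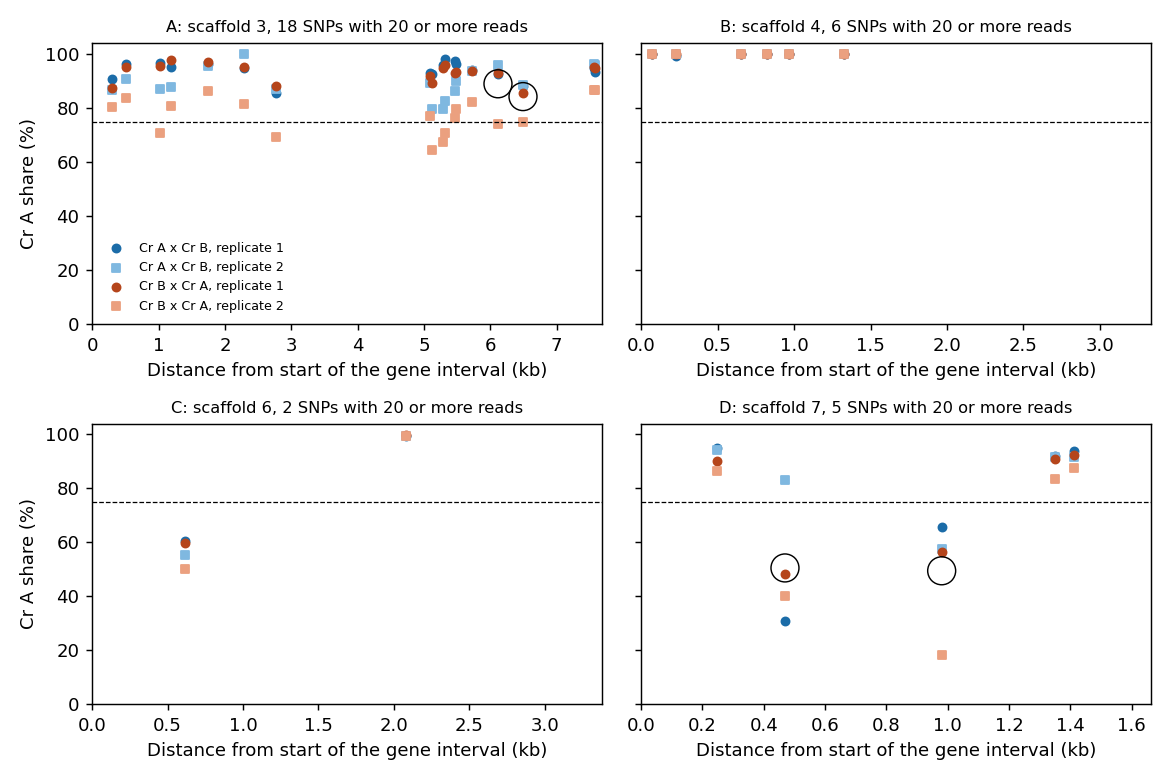
Cr A share in percent of single SNPs with 20 or more reads in every library, by distance in kb from the start of the gene interval along its own strand, in 4 Cr A-dominated genes (A, scaffold 3 from 8488855; B, scaffold 4 from 6573366; C, scaffold 6 from 342684; D, scaffold 7 from 9777736). Points are libraries, open circles are drawn at the mean of each intron SNP, and the dashed line marks 75%; SNPs stay together in A and B, while C holds a SNP near an even share and D has 2 intron SNPs at 49.4% and 50.5%.

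To see a gene's other SNPs apart from the one that picks it, genes were picked by their deepest SNP alone. This gave 56 genes, 43 of them members. In 32 of the 56 there were other SNPs at least 100 bases away with enough reads. Over those other SNPs 14 of 32 genes (43.8%, exact 95% interval 26.4% to 62.3%) again had a Cr A share of 75% or more in each library, a condition that 0.944% of covered genes met over all their SNPs. The mean share over the other SNPs was above 50% in 30 of 32 genes, against 42.0% of covered genes, with a median of 80.5% and a range from 42.1% to 100%. With a distance of at least 300 bases 12 of 28 genes passed. The shares given for covered genes are not limited to genes with such other SNPs, so they are not a matched background. SNPs of 1 gene also share transcripts and can share reads. At the other SNPs most of these genes thus leaned the same way as at the deepest SNP, and fewer reached 75%. The 14 genes that passed are all members, so their other SNPs also count in the sums that chose the members. These values are therefore no independent check of the set.

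SNPs outside the gene intervals gave a few further readings. Within 1000 bases of a member there were 5 such SNPs with 20 or more reads in every library, beside 4 members. All 5 had a mean Cr A share above 50%, and how many of all SNPs outside genes did was not counted. Only 1 of the 5 was at 75% or more in each library, as were 3.12% of all 1442 such SNPs. It lay on scaffold 5 at 10716183, 208 bases beyond the interval from 10712853 to 10715975, and stood at 100%, 100%, 100% and 99.4%. The member's own single SNP stood at 88.1% and 90.6%, then 81.6% and 76.4%, lower than the SNP beyond it in every library. The other 4 SNPs had mean shares from 58.4% to 70.6%.

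The genes next to members were called towards either allele. Of 125 nearest non-member genes tested, at a median gap of 3547.5 bases, 9 were called towards Cr A by the accession term of the edgeR fit (7.20%, against 5.11% of all genes tested) and 19 towards Cr B (15.2%, against 9.35%). Their median log2 Cr A over Cr B was -0.02, against -0.08 over all genes tested. Both counts were lower in each fit with a library left out, and lowest without replicate 2 of Cr A x Cr B. Such a fit holds 1 library of that cross, and the share of all genes called in it is not given here. A dependence of the neighbours on single libraries can therefore not be told from fewer calls in general.

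All 66 members lay on the 8 largest scaffolds. Their share of covered genes ran from 0.433% on scaffold 8, with 3 of 693, to 1.77% on scaffold 2, with 13 of 736. Members were neighbours among covered genes in 2 places, both on scaffold 6. The first held the intervals from 318169 to 321501 and from 342684 to 346059. The interval from 318169 had Cr A shares of 77.8% and 91.6% in Cr A x Cr B, then of 81.9% and 79.2% in the reciprocal cross. The second place held the intervals from 629524 to 631443, from 631812 to 633313 and from 632826 to 638182. Together with 1 more member, from 567078 to 568979, these are 6 members among 21 covered genes in 320 kb, a window chosen after the values were seen.

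In the second place the summed shares of the 3 neighbours all favoured Cr A, as the rule requires of every member. The first, on the plus strand, had shares of 98.0% and 97.7% in Cr A x Cr B, then of 99.2% and 99.4% in the reciprocal cross. The second, also on the plus strand, had no Cr B read in either library of Cr A x Cr B and stood at 85.2% and 96.4% in the reciprocal cross. The last is the minus-strand gene described with the parental test, at 97.5% and 98.5%, then 85.7% and 78.1%. The second and the last overlap on opposite strands, and the 4 SNPs in the overlap were assigned to the last. Without them the last stood at 37.0% and 18.2% in the reciprocal cross, on 22 and 60 reads, with the larger share from Cr B. The first was slightly higher in Cr B x Cr A than in Cr A x Cr B, and the second was lower.

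The only other member with SNPs of its own in an overlap lay on the plus strand of scaffold 2 from 10727338 to 10733269. Its 5 SNPs in the overlap stood at 82.0% and 84.7% in Cr A x Cr B, then 83.3% and 86.6% in the reciprocal cross, and its 11 other SNPs at 93.4% and 69.2%, then 63.4% and 75.2%. It kept a share above 50% in every library but fell below 75% in 2 of them. With only SNPs that lie in 1 interval, 64 of the 66 genes met the rule.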

How the data were processed

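The 4 endosperm libraries, 2 per cross, were analysed. For each the authors deposited base counts per SNP, and a pair of tables by the authors gives, per the file headers, maternal and paternal read counts per SNP with gene and exon intervals. Trimmomatic, Bowtie 1.0 and TopHat are listed in the submitters' processing notes, without their roles. For the caller and the build, the sources used here name nothing. Counts in the tables equalled those of the library files at 99.99% of SNPs in each library. Bases of neither parent made up 0.0885% to 0.102% of calls.

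Reads were summed per gene interval, library and allele (pandas 2.3.3), and maternal sums were halved. The members and lists were chosen with earlier results of these data known. The parental and accession terms came from edgeR 4.0.16 (R 4.3.3), quasi-likelihood test, with maternal and paternal reads of a library in separate columns: 8 columns, terms for library, accession and parent, an offset of 2 maternal to 1 paternal, genes with at least 20 reads in each cross, and 2 residual degrees of freedom. Total allelic reads were compared with edgeR (TMM, filterByExpr). The adjusted p threshold was 0.05 (Benjamini-Hochberg). Standard errors are the estimate over the square root of its F statistic. DESeq2 1.42.0, other read minimums, exon SNPs, the deepest SNP, a replicate block and leaving out each library were alternatives. Intervals are exact 95% (Clopper-Pearson, scipy 1.17.1), and the limit for a count of 0 is 3 reads. The fits were also run on simulated counts with known changes and the same fixed spread for all genes. That run checks the code and not the spread of these data, and its outcome is not given here. Whether replicates came from different plants is not stated, and p-values reflect only the spread between the pools, which may be technical.

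The genes named were the 12 with most reads, the 8 with the highest lowest-library share at 50 or more reads each, the 3 on each side of the threshold, those past a test, those in runs, and those whose SNPs disagree. Other genes given as SNP, exon or flanking examples were picked after their values were seen. Product classes and markers could not be applied without gene names.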

Additional observations from a re-analysis of the deposited data

Results flagged for a closer look

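In 3 Cr A-dominated genes the summed Cr A share differed between the directions of the cross by the parental term of the edgeR fit. On scaffold 2 from 2236873 to 2241290 the log2 maternal effect was -1.04 (adjusted p = 0.0117), with a Cr A share that was higher in both Cr B x Cr A libraries. On scaffold 6 from 632826 to 638182 it was 1.77 (adjusted p = 0.0284), and on scaffold 8 from 3152553 to 3153898 it was 3.22 (adjusted p = 0.0388), both with a share that was higher in both Cr A x Cr B libraries. On scaffold 6 the favoured allele differed too at the 7 SNPs outside the overlap with the neighbouring member. The Cr A share there was 100% and 92.2% in Cr A x Cr B, then 37.0% and 18.2% on 22 and 60 reads in the reciprocal cross. No cause was tested.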

How the results depend on the processing

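With maternal sums not halved 34 genes met the rule in place of 66, 32 of them shared, and the median Cr A share was 86.7% in place of 89.2%. By the deepest SNP alone the median share of the members was 92.9%, 0 members were called on either parental side, 12 neighbours were called towards Cr B, and 7 members had an unadjusted p under 0.05 in total expression. DESeq2 called 4 members on the maternal side in place of 2. SNPs beyond the intervals with a mean share over 50% numbered 3 within 500 bases, 8 within 2000 bases and 8 with a minimum of 10 reads, in place of 5. Leaving out 1 library gave 72 to 87 members, a median share of 88.5% to 90.4%, 0 to 1 maternal and 0 to 2 paternal calls, 3 to 8 neighbours towards Cr A and 9 to 18 towards Cr B, 3 to 11 members with an unadjusted p under 0.05 in total expression, and a median log2 difference in total of -0.999 to -0.73. Leaving out a library removes 1 condition of the rule, so no member can be lost. It also leaves 1 cross with 1 library, so the counts of calls in these fits are not read as a result about members or neighbours. The other alternatives kept direction and side, with 48 to 79 members; no alternative called a member in total expression. DESeq2 called 24 genes there in all, of 12638 tested, and the fit with no filter on low counts 5, in place of 0. With only SNPs that lie in 1 interval the mean Cr A share of the gene on scaffold 6 from 632826 to 638182 was 61.8% in place of 89.95%, and the 3 parental calls remained. The alternatives on unadjusted counts and medians of total expression, on overlapping intervals and their SNPs and on the 300-base distance were chosen after seeing the data.

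With the replicate number as a block, 0 members passed the test of total expression, as without it, and 5 genes were called in all. An unadjusted p under 0.05 was found in 21 members in place of 12. Over all genes tested the rate rose too, to 4.26% in place of 1.36%. The median log2 difference of the members was -0.84. The deviations of same-numbered libraries correlated at 0.57 across genes, but the labels do not say that a number marks a shared batch, and 2 pairs are too few to show it. Depth limits the 18 members with under 50 reads in some library.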
